A study of Mus musculus with 4 samples.

Results

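The semaphorin, plexin, neuropilin, ephrin and Eph receptor genes were followed across 4 stages of mouse osteoclast formation in culture, with 1 expression array per stage. Members were all genes whose symbol in the array annotation begins with Sema, Plxn, Efna, Efnb, Epha or Ephb and a digit or subgroup letter, plus Nrp1 and Nrp2, with Sema4d and Efnb2 left out, and each was read from 1 probe set. This gave 51 of 18193 named genes: 19 semaphorins, 10 plexin symbols (1 of them, Plxna4os1, an antisense transcript), 2 neuropilins, 7 ephrins and 13 Eph receptors. All cells came from marrow of C57BL/6 mice 8 to 10 weeks old. Bone marrow macrophages (BMM) had 3 days in M-CSF (100 ng/ml), and pre-osteoclasts (pOC) were the mononuclear cells, positive for the osteoclast stain TRAP, obtained after 2 days of M-CSF plus RANKL at 100 ng/ml. After 2 more days with both cytokines, multinucleated osteoclasts were collected from dentin slices, which they resorb (mOCd), or from plastic plates (mOCp).

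Semaphorins are secreted or membrane-bound guidance cues, and plexins are their signalling receptors. Neuropilins are co-receptors that lend plexins their affinity for secreted class 3 semaphorins and that also bind VEGF. Ephrins are membrane ligands of the Eph receptor tyrosine kinases and can signal back into the cell that carries them. In bone, Sema3A acting through Nrp1 and Plxna1 is known to restrain osteoclast formation, osteoclast Sema4D acts on Plxnb1 of osteoblasts, and ephrin-B2 of osteoclasts meets EphB4 on osteoblasts.

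The values were linear signal intensities scaled to the same trimmed mean on every array. The floor of an array is the median of its probe sets (12.7 in BMM, 14.5 in pOC, 15.8 in mOCd and 14.8 in mOCp), and values under it were set to it before a ratio was taken. A difference was counted where it came to 2-fold or more and the brighter array's value reached that array's 75th percentile (between 77.8 and 87.0). A ratio against the floor is a lower bound, written "at least". With 1 array per stage there are no replicates, so no test could be run between stages, and how many mice or cultures stand behind each array is not given in the sources used here. As a guide to error, ratios from 2 probe sets of one gene were compared, and their disagreement had an SD on the log2 scale of 0.39 for pOC against BMM, 0.40 for mOCp against pOC, 0.50 for mOCd against pOC and 0.43 for mOCd against mOCp. It leaves out the spread between cultures and animals.

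The labelled cell types carried their markers. The summed intensity of 10 osteoclast markers was 250.6 in BMM, 32519.8 in pOC, 51729.0 in mOCd and 50165.5 in mOCp, and that of 10 macrophage markers was 29059.1, 11715.9, 16662.0 and 20158.2 in the same order. Outside BMM the macrophage sum came mainly from Csf1r (4898.6 in pOC, 7644.1 in mOCd, 7511.7 in mOCp) and Cd68 (5096.2, 7367.1 and 8622.9). Of the 10 macrophage markers 8 were counted as lower in pOC than in BMM. Against pOC, 0 were higher and 1 lower in mOCd, and 4 were higher and 0 lower in mOCp. Of 10 endothelial markers 0 reached the 75th percentile on any array, and Cdh5, Pecam1, Tek, Tie1 and Emcn lay at or under the floor on all 4, while the other 5 exceeded it on at least 1, the brightest being Esam at 68.3 in mOCp. Of 10 stromal and osteoblast markers 1, Dcn, reached it, at 196.1 in pOC and 127.3 in mOCd, while Col1a1, Col3a1 and Cxcl12 stayed at or under the floor. Summed neutrophil markers, 10 genes, were 435.0 in BMM, 976.2 in pOC, 1106.1 in mOCd and 2063.1 in mOCp. Fewer cells of a type and less RNA per cell cannot be told apart in such bulk samples.

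Because both the neuropilins and the plexins held genes that moved in opposite directions, the promoters of Nrp1 and Nrp2 and of Plxnc1 and Plxnd1 are shown, each with 250 bases before and 50 after the annotated start, from RefSeq on GRCm38.p6. Nrp1 lies at chr8:128358823-128359122 on the plus strand, Nrp2 at chr1:62703067-62703366 on the plus strand, Plxnc1 at chr10:94944796-94945095 on the minus strand and Plxnd1 at chr6:115994956-115995255 on the minus strand. Each reads 5′ to 3′ along its gene. Capitals mark matches on either strand to GGAAA, the core of NFAT sites, or to GAGGAAG, a form of the PU.1 site.
Nrp1: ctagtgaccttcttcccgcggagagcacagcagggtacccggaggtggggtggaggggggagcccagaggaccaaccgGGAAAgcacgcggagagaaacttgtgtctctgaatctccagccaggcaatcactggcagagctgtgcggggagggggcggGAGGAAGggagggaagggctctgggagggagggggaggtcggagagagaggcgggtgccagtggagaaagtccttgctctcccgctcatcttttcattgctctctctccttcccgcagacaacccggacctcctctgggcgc
Nrp2: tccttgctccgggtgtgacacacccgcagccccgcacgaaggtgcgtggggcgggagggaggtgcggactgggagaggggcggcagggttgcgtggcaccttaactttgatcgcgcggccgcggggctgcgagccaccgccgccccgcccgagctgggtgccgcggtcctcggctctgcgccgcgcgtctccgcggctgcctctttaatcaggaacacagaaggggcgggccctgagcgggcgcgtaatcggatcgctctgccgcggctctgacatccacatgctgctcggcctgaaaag
Plxnc1: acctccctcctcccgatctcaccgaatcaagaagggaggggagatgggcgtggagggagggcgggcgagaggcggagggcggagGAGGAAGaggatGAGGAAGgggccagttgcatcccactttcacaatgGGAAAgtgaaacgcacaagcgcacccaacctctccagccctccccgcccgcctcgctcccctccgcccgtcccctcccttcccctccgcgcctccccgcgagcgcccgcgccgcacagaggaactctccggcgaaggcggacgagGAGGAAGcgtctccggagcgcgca
Plxnd1: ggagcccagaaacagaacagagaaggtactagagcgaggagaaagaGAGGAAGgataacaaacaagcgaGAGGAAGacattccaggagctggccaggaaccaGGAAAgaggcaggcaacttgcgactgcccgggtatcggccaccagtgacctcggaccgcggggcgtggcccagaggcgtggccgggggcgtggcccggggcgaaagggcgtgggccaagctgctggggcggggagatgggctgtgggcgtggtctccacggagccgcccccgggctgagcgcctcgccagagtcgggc
The Nrp1 window held 1 GGAAA and 1 GAGGAAG, the Nrp2 window held 0 of either, the Plxnc1 window 1 and 3, and the Plxnd1 window 1 and 2. None of the 4 held the AP-1 site TGANTCA, the MITF E-box CACGTG or the hypoxia core ACGTG, which lies inside that E-box. Over 32851 promoters of the same length, GGAAA was present in 61.3%, GAGGAAG in 13.6%, TGANTCA in 7.81%, CACGTG in 7.15% and ACGTG in 19.6%. The table matched 44 of the 51 members with 56 promoters, of which 29 held GGAAA and 14 held GAGGAAG. Their median CpG count was 20 per promoter, against 7 over all promoters. Both plexin windows held both motifs, and of the neuropilin windows only that of Nrp1 did. A match describes letters in a window and is not a site shown to be bound.

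Of the 51 members, 34 exceeded the floor on at least 1 array (66.67%, against 71.85% of all named genes), 13 did so on all 4, and 14 reached the 75th percentile on at least 1. Those 14 were 3 semaphorins, 6 plexins, both neuropilins, 2 ephrins and 1 Eph receptor. By array, 7 members reached it in BMM, 10 in pOC, 12 in mOCd and 10 in mOCp.

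**Figure D1:**
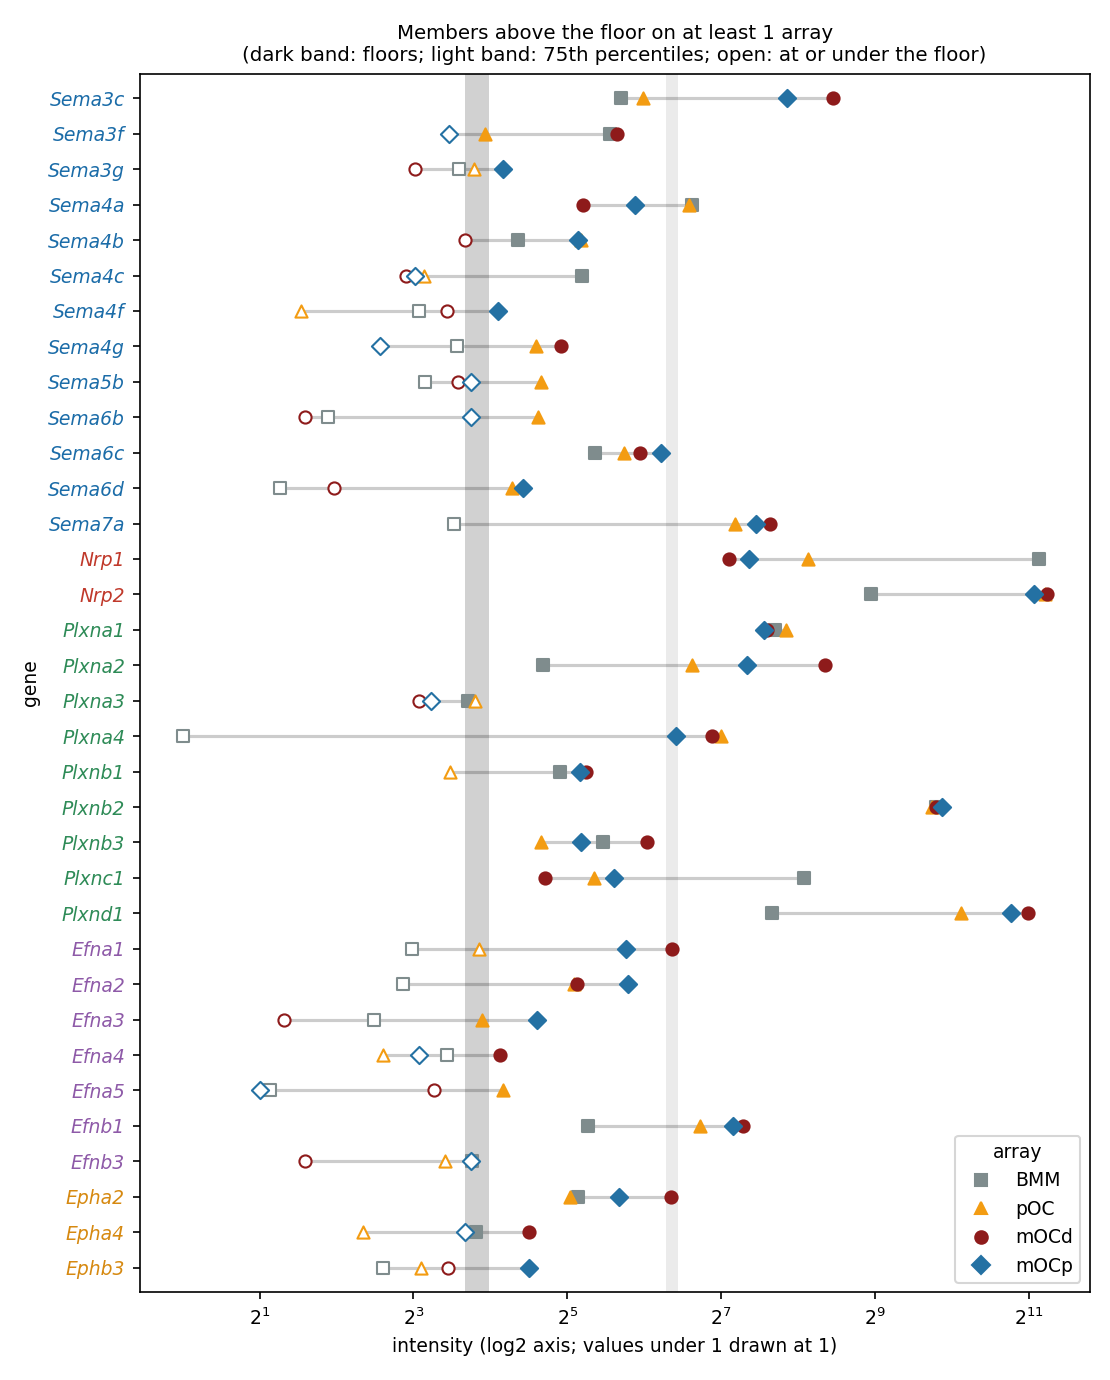
Intensity on a log2 axis of the 34 members above the floor on at least 1 array, with 1 symbol per array (BMM, pOC, mOCd, mOCp) and open symbols for values at or under the floor. Nrp1 and Plxnc1 have the BMM array at the bright end, Nrp2, Plxnd1 and Sema7a have it at the dim end, and Plxnb2 and Plxna1 have all 4 arrays close together.

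The comparison of pOC with BMM covered the first 2 days of RANKL. The neuropilins differed in opposite directions: Nrp1 was 8.03-fold lower and Nrp2 4.81-fold higher in pOC. Among plexins, Plxnd1, Plxna2 and Plxna4 were higher and Plxnc1 was lower, and the semaphorin Sema7a and the ephrin Efnb1 were higher. In all 6 members were higher and 2 lower, out of 11 bright enough to be counted. Over all named genes 11.1% of 7256 such genes were higher and 13.2% were lower. The 11 members had a median log2 ratio of 1.46, against 0.05 over the 7256 genes, a description that rests on a filter met through the brighter of both arrays. Efnb1, Plxna2, Plxna4 and Sema7a met that filter only through their pOC value, and Plxnc1 only through its BMM value. Cells kept those 2 days in M-CSF without RANKL were not analysed here, and the cytokine's effect cannot be told apart from that of longer culture.

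Nrp1, the co-receptor through which Sema3A and VEGF-A act, gave signals of 2244.2 in BMM, 279.5 in pOC, 137.2 in mOCd and 164.2 in mOCp. Its BMM value stood far above the other arrays, and the step to pOC had a log2 ratio of −3.01. All 3 further Nrp1 probe sets also read lower in pOC, with log2 ratios from −4.01 to −2.80. Macrophage markers moved with it: 8 of 10 were lower in pOC and 0 higher, with Adgre1 at 319.6 in pOC against 1581.9 in BMM, and their part in the Nrp1 result was not tested.

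Nrp2, the co-receptor favoured by Sema3F and VEGF-C, had 493.5 in BMM, 2372.5 in pOC, 2408.5 in mOCd and 2145.1 in mOCp. On that probe set the 3 RANKL-treated arrays lay close together and above BMM, and its log2 ratio for pOC against BMM was 2.27. The 3 further probe sets gave 1.08 to 2.50 on that scale, all in the same direction.

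Plxnd1, the receptor of Sema3E and also a receptor of Sema4A, read 202.8 in BMM, 1113.0 in pOC, 2031.2 in mOCd and 1746.6 in mOCp. It was 5.49-fold higher in pOC than in BMM, and both mature arrays were brighter still without reaching a further 2-fold (1.82-fold for mOCd and 1.57-fold for mOCp, each against pOC). The array has 1 probe set for this gene, so no further reading of it was at hand.

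Plxna2, a plexin of the class that pairs with neuropilins or binds class 6 semaphorins, read 25.8 in BMM, 98.2 in pOC, 326.4 in mOCd and 162.0 in mOCp. BMM was the dimmest array and dentin the brightest. Its 3.81-fold difference between pOC and BMM had the same direction on all 3 further probe sets, at log2 ratios from 0.73 to 1.84. The mean over all Plxna2 probe sets, the one used among them, was too dim to be counted (log2 ratio 1.65). Plxna4, of the same class, read 0.6 in BMM, 128.0 in pOC, 117.7 in mOCd and 85.2 in mOCp, so it was at least 10.1-fold higher in pOC. Its other probe set read 9.4, 60.3, 128.8 and 57.8 in the same order, which also placed BMM under the floor but put the peak on dentin. Chosen as the representative, that probe set ends the Plxna4 call here, since 60.3 is under the 75th percentile in pOC (log2 ratio at least 2.25).

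Plxnc1, the plexin that binds Sema7A, read 271.4 in BMM, 40.9 in pOC, 26.1 in mOCd and 48.9 in mOCp, 6.64-fold lower in pOC than in BMM. Only the BMM array exceeded the 75th percentile. The 4 further probe sets that could be read gave log2 ratios from −3.02 to −1.96, against −2.73 on the one used, and the mean over all its probe sets, several of them dim, ended the call. Sema7a itself, a GPI-anchored semaphorin that also binds beta1 integrins, read 11.5 in BMM, 145.6 in pOC, 199.4 in mOCd and 174.9 in mOCp. Its BMM value was under the floor, and pOC was at least 11.5-fold higher. Its second probe set stayed at or under the floor on all 4 arrays (2.0 in BMM, 9.5 in pOC, 9.0 in mOCd and 14.5 in mOCp), so the Sema7a difference rests on 1 probe set, and the mean over both probe sets ended the call (log2 ratio 1.55).

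Efnb1, encoding ephrin-B1, a transmembrane ligand that can signal into its own cell, read 38.5 in BMM, 106.0 in pOC, 156.5 in mOCd and 142.0 in mOCp. It was 2.75-fold higher in pOC than in BMM. Both further probe sets ran the same way, at log2 ratios of 1.22 and 1.55, against 1.46. The call ended where suffixed probe sets, which can match more than 1 transcript, were left out, because the remaining probe set was dim in pOC (29.6), and also with the mean over probe sets (log2 ratio 2.05).

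**Figure D2:**
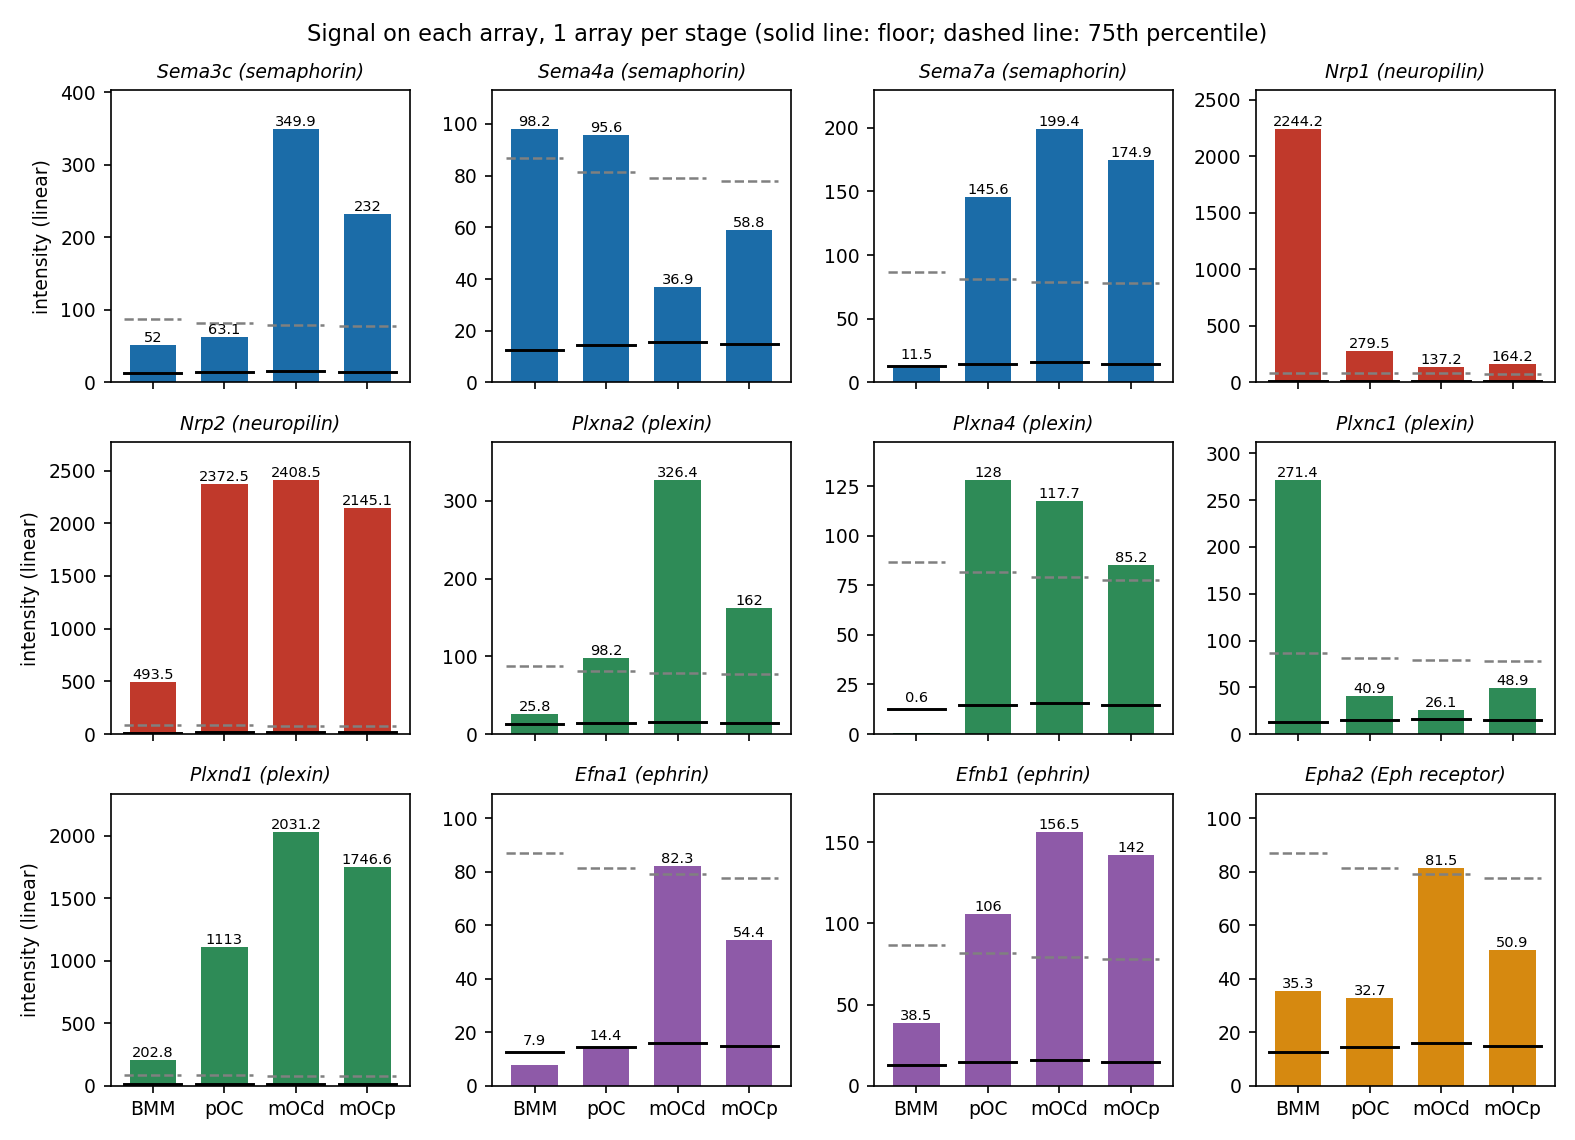
Linear intensity of the 12 members counted as higher or lower in at least 1 comparison, as bars starting at 0, with 1 bar for each of BMM, pOC, mOCd and mOCp. The solid line marks the floor of each array and the dashed line its 75th percentile, and the bars show Nrp1 at 2244.2 in BMM against 279.5 in pOC beside Nrp2 at 493.5 in BMM and 2372.5 in pOC.

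The comparisons of mOCd and mOCp with pOC followed maturation over 2 further days, and both use the same pOC array. Sema3c was higher on both substrates, while Efna1, Epha2 and Plxna2 were counted as higher on dentin and Nrp1 and Sema4a as lower there. On dentin 4 members were higher and 2 lower out of 13 bright enough, against 10.8% and 12.3% of 7230 genes. On plastic 1 was higher and 0 lower out of 11, against 8.8% and 11.4% of 7192 genes. The median log2 ratio was 0.45 over those 13 members against −0.01 over the 7230 genes on dentin, and 0.12 over the 11 against −0.03 over the 7192 on plastic. These medians also rest on a filter met through the brighter array. Sema3c, Efna1 and Epha2 entered the dentin set only through their mOCd value, and Sema4a only through its pOC value. In the plastic set Sema3c entered only through its mOCp value and Sema4a only through its pOC value. Of the 10 macrophage markers 1 was lower on dentin and 4 were higher on plastic, and their part in these results was not tested. Maturation, time in culture and substrate cannot be told apart in the dentin comparison. Scaling to the spike-in controls, which were 0.43 brighter in mOCp than in pOC on the log2 scale, gave 1 higher and 3 lower on plastic, the lower ones being Nrp1, Plxna4 and Sema4a, while 4.01% of all genes were then higher and 23.4% lower.

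Sema3c, a secreted semaphorin that binds both neuropilins, read 52.0 in BMM, 63.1 in pOC, 349.9 in mOCd and 232.0 in mOCp. The early arrays lay under their 75th percentiles and both mature arrays well above. Against pOC it was 5.55-fold higher on dentin and 3.68-fold higher on plastic. Its other probe set read 24.5 in BMM, 24.5 in pOC, 36.8 in mOCd and 60.6 in mOCp, which also put both mature arrays above pOC but plastic above dentin, with log2 ratios of 0.59 for mOCd and 1.31 for mOCp.

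Efna1, encoding the GPI-anchored ligand ephrin-A1, read 7.9 in BMM, 14.4 in pOC, 82.3 in mOCd and 54.4 in mOCp. Both early arrays were under the floor, so mOCd was at least 5.68-fold higher than pOC, and mOCp at least 3.75-fold with a value too dim to be counted. Its second probe set gave at least 1.81 for mOCd on the log2 scale. Epha2, a principal receptor of ephrin-A1, read 35.3 in BMM, 32.7 in pOC, 81.5 in mOCd and 50.9 in mOCp. It was 2.49-fold higher in mOCd than in pOC and has 1 probe set, a suffixed one. The Epha2 and Efna1 values on dentin lay only just above the 75th percentile of 79.1. Spike-in scaling ended the Epha2 call (log2 ratio 0.96), and loess or the mean over probe sets ended that of Efna1.

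Plxna2 was 3.32-fold higher in mOCd and 1.65-fold in mOCp, each against pOC, with all 3 further probe sets in the same direction on dentin (log2 ratios from 0.67 to 1.82). Nrp1 was 2.04-fold lower in mOCd than in pOC, a step close to the 2-fold limit. Of its 3 further probe sets 2 were also lower and 1 higher, from −0.60 to 0.51 on the log2 scale, and the call ended under quantile or loess normalization and with the mean over probe sets (log2 ratio −0.37). Sema4a, a membrane semaphorin of immune cells, read 98.2 in BMM, 95.6 in pOC, 36.9 in mOCd and 58.8 in mOCp, 2.59-fold lower on dentin than in pOC. Its other probe set, the only unsuffixed one, read 73.8 in BMM, 55.7 in pOC, 29.5 in mOCd and 75.6 in mOCp, so it was lower on dentin too but not on plastic. With that probe set alone (log2 ratio −0.92) or the mean over both, the call ended.

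The comparison of mOCd with mOCp asked what differed between resorbing cells and cells of the same age on plastic. Plxna2 was the 1 member counted, 2.01-fold higher on dentin (326.4 in mOCd against 162.0 in mOCp), and 0 were lower, out of 12 bright enough, against 2.15% and 2.55% of 6915 genes. The median log2 ratio was 0.20 over the 12 members and 0.01 over the 6915 genes, again with a filter met through the brighter array. Efna1 and Epha2 met it only through their mOCd value. Of the 10 macrophage markers 4 were lower in mOCd than in mOCp, and their part was not tested. The further Plxna2 probe sets gave log2 ratios from −0.10 to 0.79, 2 of 3 in the same direction, against 1.01 on the one used. The call ended under median scaling, quantile normalization, loess and the mean over probe sets. The transferrin receptor control had a 3′ to 5′ log2 ratio of 1.70 in mOCd and 0.84 in mOCp, whereas that of Gapdh was −0.34 and −0.29, and the part of RNA quality in the dentin results was not tested. Of the other members bright enough, Epha2 (log2 ratio 0.68), Efna1 (0.60), Sema3c (0.59) and Plxna4 (0.47) exceeded the probe-set disagreement of 0.43 without reaching 2-fold. Plxnd1 (0.22), Sema7a (0.19), Nrp2 (0.17), Efnb1 (0.14), Plxna1 (0.03), Plxnb2 (−0.07) and Nrp1 (−0.26) lay within it. A pair of further Nrp2 probe sets were over 2-fold brighter on dentin, with log2 ratios of mOCd over mOCp of 1.16 and 1.35. Further probe sets of other genes also departed from the values above. Those of Efnb1 gave 1.56 and 0.26, and those of Nrp1 gave 0.73, at least 1.06 and −0.55. The other probe set gave 1.16 for Plxna4, 0.13 for Efna1 and −0.72 for Sema3c.

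**Figure D3:**
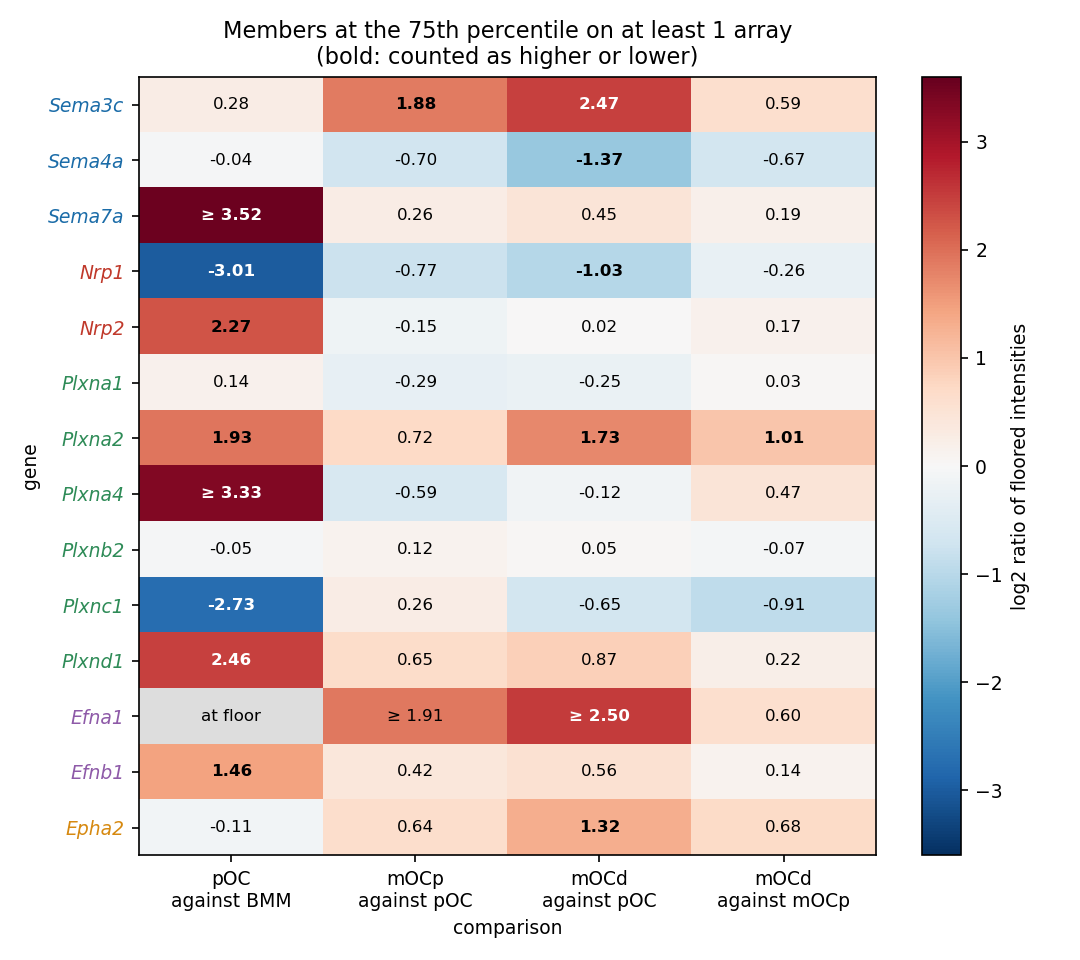
Log2 ratios of floored intensities for the 14 members that reached the 75th percentile on at least 1 array, with genes in rows, the 4 comparisons in columns, bold type for counted differences and grey where both values lay at the floor. Of the counted cells 8 lie in the first column, pOC against BMM, and 6 in that of mOCd against pOC, and in the first the counted values run from −3.01 for Nrp1 to at least 3.52 for Sema7a.

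**Figure D4:**
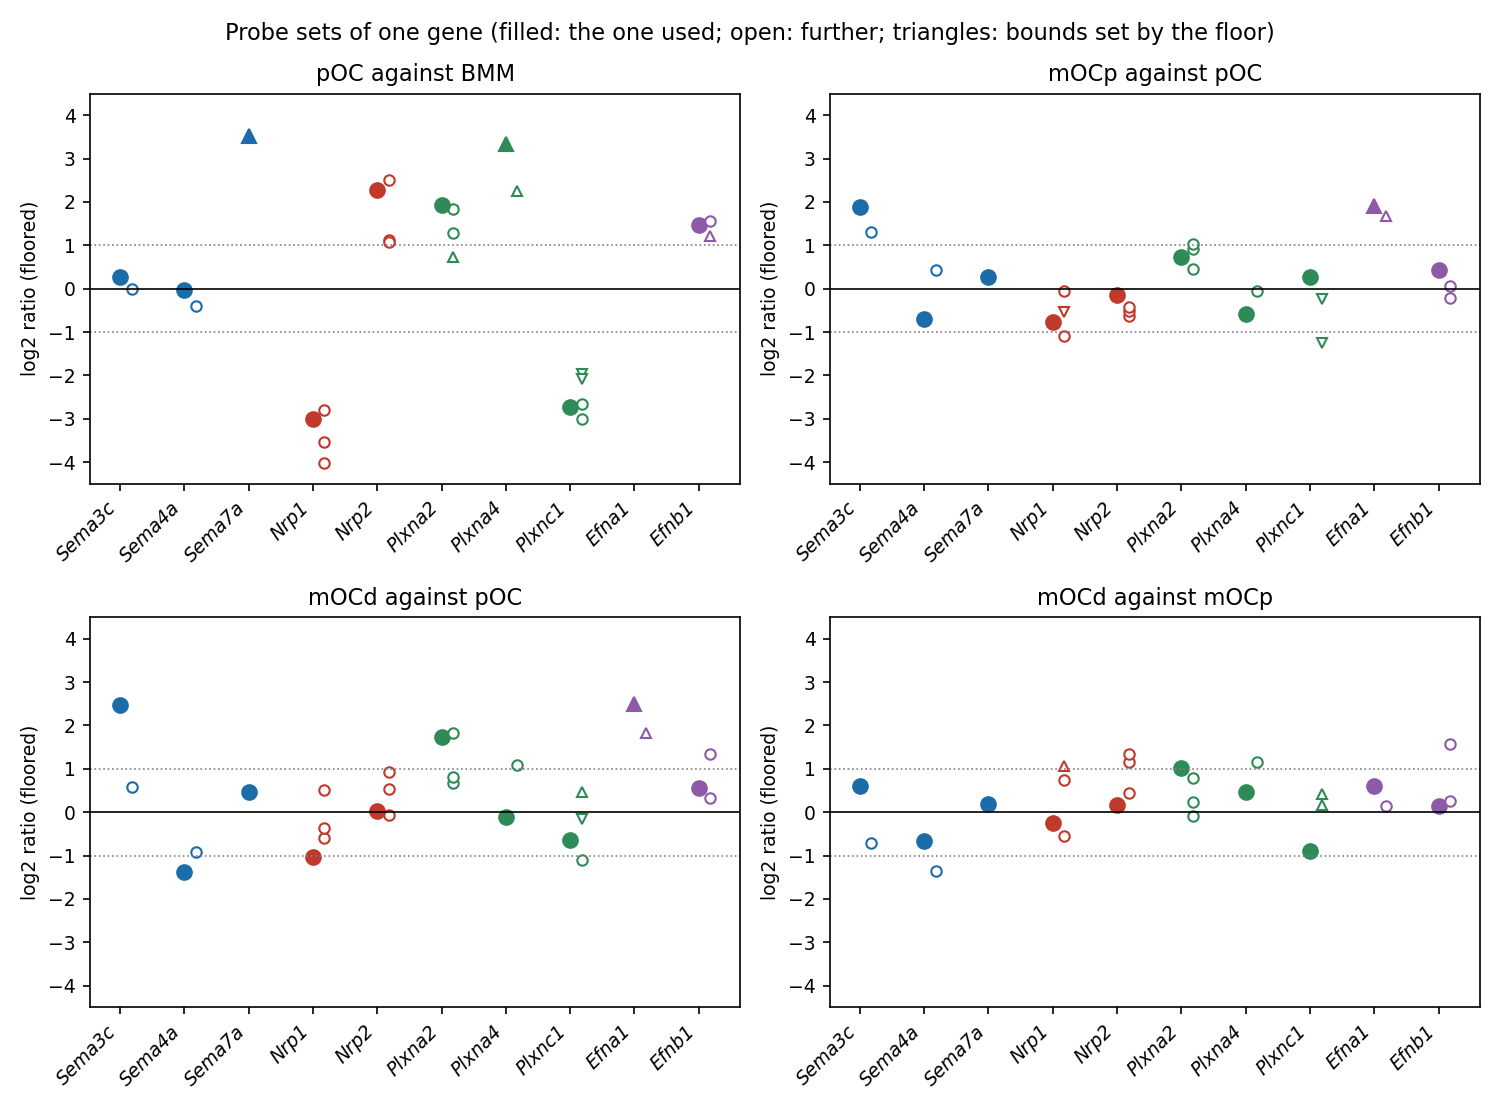
Log2 ratio of each probe set for the 10 counted members with more than 1, in the 4 comparisons, with filled symbols for the probe set used, open symbols for further ones and triangles for bounds set by the floor. In pOC against BMM the probe sets of Nrp1, Nrp2, Plxna2 and Plxnc1 each lie on 1 side of 0. In mOCd against mOCp those of Nrp1, Plxna2, Plxnc1 and Sema3c lie on both sides.

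The remaining bright members were nearly level. Plxnb2, a receptor of class 4 semaphorins, read 888.1 in BMM, 859.9 in pOC, 890.8 in mOCd and 934.8 in mOCp, a span of 1.09-fold over the 4 arrays. Plxna1, a plexin that works with Nrp1 for Sema3A and with Trem2 for Sema6D, read 208.1, 230.0, 193.0 and 188.7 in the same order, a span of 1.22-fold. On the probe sets used, Plxna1 thus stayed within 1.22-fold on arrays over which Nrp1 spanned 16.4-fold. A dimmer Plxna1 probe set read 33.3 in BMM, 39.4 in pOC, 26.3 in mOCd and 26.6 in mOCp. Its log2 ratios against pOC were −0.58 for mOCd and −0.57 for mOCp. Plxna2 and Plxna4, of the class that pairs with neuropilins, spanned 12.7-fold and at least 10.1-fold.

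Of the dimmer plexins, Plxnb1, the receptor of Sema4D, read 30.1 in BMM, 11.1 in pOC, 37.9 in mOCd and 35.9 in mOCp, with the pOC value under the floor. Plxnb3, which binds Sema5A, had its highest value, 65.4, in mOCd, and Plxna3 stayed at or under 14.0. Their ratios were not counted because no value reached the 75th percentile. Sema4d, the ligand of Plxnb1, was bright on every array, at 1407.1 in BMM, 2193.7 in pOC, 3157.4 in mOCd and 2957.4 in mOCp, and on that probe set did not differ 2-fold in any of the 4 comparisons. Another Sema4d probe set read 0.9 in BMM, 1.4 in pOC, 86.0 in mOCd and 89.5 in mOCp, with log2 ratios against pOC of at least 2.57 for mOCd and 2.63 for mOCp.

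The dimmer semaphorins did not follow 1 course. Sema6c read 41.1 in BMM, 53.2 in pOC, 61.6 in mOCd and 74.8 in mOCp. Sema4c exceeded the floor in BMM alone (36.5). Sema3f read 47.0 in BMM, 15.3 in pOC, 50.2 in mOCd and 11.0 in mOCp, but on a suffixed probe set whose 2 companions never exceeded 3.0. Sema4b had 36.4 in pOC and 35.3 in mOCp against 12.7, under the floor, in mOCd. Sema6d, a ligand of Plxna1, read 19.5 in pOC and 21.4 in mOCp and was under the floor in BMM and mOCd. Sema3g, Sema4f, Sema4g, Sema5b and Sema6b peaked at between 17.1 and 30.2, near the floor. Sema3a, Sema3b, Sema3d, Sema3e, Sema5a and Sema6a lay at or under the floor on all 4 arrays, as did Plxna4os1. Thus neither Sema3a, the known ligand of Nrp1 with Plxna1, nor Sema3e, that of Plxnd1, exceeded the floor in these cells.

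All 7 ephrins exceeded the floor on at least 1 array, several narrowly, and 2 reached the 75th percentile. Of 13 Eph receptors 1 reached it, and 10 lay at or under the floor on all 4, namely Epha1, Epha3, Epha5, Epha6, Epha7, Epha8, Epha10, Ephb1, Ephb4 and Ephb6. Efna2, a ligand that osteoclasts are known to carry, read 7.3 in BMM, 34.1 in pOC, 34.9 in mOCd and 55.5 in mOCp. Efna3, Efna4, Efna5 and Efnb3 did not exceed 24.4 on any array. Epha4 reached 22.6 in mOCd and Ephb3 22.6 in mOCp. Efnb2, which encodes ephrin-B2, read 7.8 in BMM, 13.9 in pOC, 64.4 in mOCd and 117.1 in mOCp, and Ephb4, its receptor, at most 7.3.

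Other genes of these pathways were read from lists of signalling genes (49 with a probe set) and of partner receptors and their ligands (22). In pOC against BMM, 3 of 31 bright enough signalling genes were higher and 9 lower, and 3 of 9 partners were higher and 3 lower, beside 11.1% higher and 13.2% lower over all genes. Cd72, a receptor of Sema4D on immune cells, was 7.13-fold lower (176.0 in pOC against 1254.5 in BMM). Trem2, the partner of Plxna1, was 6.83-fold lower (287.8 against 1964.6), although Plxna1 itself was level. Itsn1, an exchange factor linked to EphB receptors, was 4.70-fold lower. Abl2, an actin-regulating kinase, was 3.19-fold higher, and the MICAL-like gene Micall1 2.12-fold. Met and Mst1r, kinases that associate with plexin-B receptors, were at least 59.9-fold and at least 52.5-fold higher in pOC, and Vegfc, a VEGF that Nrp2 binds, at least 14.7-fold. These 3 were named after their values were seen, since each lay at 1.7 or under in BMM.

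In mature cells the signalling genes that were counted were higher, with 6 of 33 on dentin and 6 of 31 on plastic against pOC, and 0 lower on either. Over all genes 10.8% were higher and 12.3% lower on dentin, and 8.8% and 11.4% on plastic. The lists were not recomputed under spike-in scaling, and both counts use the same pOC array. Mical1, Mical3 and Grb10 were bright enough on dentin only through their mOCd value. On plastic Mical1, Mical3 and Itsn1 were so only through their mOCp value. Mical1, a plexin-linked enzyme that oxidises actin, read 20.6 in pOC, 112.5 in mOCd and 103.4 in mOCp, 5.46-fold and 5.02-fold higher. Its BMM value was 63.1, above that in pOC. Rras, a small GTPase that plexins inactivate, was 3.76-fold higher on plastic (320.0 in mOCp against 85.2 in pOC), and Grb10, an adaptor, 8.18-fold higher on dentin (155.5 in mOCd against 19.0 in pOC). In BMM Rras read 157.2, also above pOC, and Grb10 read 9.6, under the floor. Of 9 partners, Vegfa, the VEGF that Nrp1 binds, was 11.5-fold higher in mOCd and 4.87-fold in mOCp, each against pOC. On dentin Mst1r was 3.20-fold higher, and Vegfc and Trem2 were 2.38-fold and 2.33-fold lower. In mOCd against mOCp, Vegfa was 2.36-fold, Grb10 2.23-fold and Mst1r 2.08-fold higher, and Trem2 and Cd72 were 2.39-fold and 2.27-fold lower.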

How the data were processed

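RNA of 4 culture stages was hybridised to 1 array each. The deposited intensity values are linear, 1 per probe set. Per the submitters' processing notes they come from MAS5, of unstated version. Their mean, leaving out the highest and lowest 2% of values, was 100.0 on all 4 arrays, so differences in total mRNA between stages are removed. Of 45037 probe sets that were not controls, 34945 had exactly 1 gene symbol in the platform annotation of 2016, 932 had several and 9160 were not listed there. All 51 members matched a current symbol in RefSeq.

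Values under an array's 50th percentile were raised to it, each gene was read from its probe set of highest mean floored log2 intensity, and ratios were counted at 2-fold with the brighter value at the 75th percentile. Every member with a count was named with all values, other members by level, and of the pathway lists the 3 highest and 3 lowest counted ratios measured above the floor per comparison, except 1 that is not reported here. Alternatives changed the floor, scaling, normalization, probe set choice and brightness filter. The members and lists were chosen with earlier results of these data known. Python 3.11.15, numpy 2.4.6, pandas 2.3.3, scipy 1.17.1 and matplotlib 3.10.9 were used.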

Additional observations from a re-analysis of the deposited data

How the results depend on the processing

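Each of 16 counted gene ratios was recomputed under 11 alternatives (1, the choice of probe set before flooring, was added after seeing the data), giving 175 values. All 175 kept their direction, 157 stayed counted, and 161 moved by less than the probe-set disagreement. Part of this was fixed in advance, since a looser brightness filter can neither move a ratio nor end a call. The changed floors also left every ratio measured above the floor as it was, so these totals overstate stability. The 6 ratios counted under every alternative were Nrp1, Nrp2 and Plxnd1 in pOC against BMM, Sema3c in both mature cultures and Plxna2 in mOCd, each against pOC. Plxnd1 has 1 probe set, without a suffix, so the alternatives in probe set choice could not change its ratio. Counts of members moved as follows, and the cause was not tested except where fewer or more genes were admitted. Without the 75th percentile filter, or with the 60th in its place, 5 members were lower in pOC than in BMM, 3 higher in mOCp than in pOC, 7 higher in mOCd than in pOC, and 3 higher and 1 lower in mOCd than in mOCp. Over all genes the shares in that order were 11.2%, 7.68%, 9.4%, 2.71% and 2.81% without the filter. At the 60th percentile they were 13.1%, 9.31%, 11.1%, 3.25% and 3.37%. How many members were bright enough under each alternative was not recorded. With the mean over probe sets, pOC had 3 higher and 1 lower against BMM, 0 lower in mOCd than in pOC and 0 higher in mOCd than in mOCp. The shares of all genes beside these counts were 12%, 13.5%, 12.7% and 3.46% in that order. Quantile normalization and loess each left 1 lower in mOCd than in pOC and 0 higher in mOCd than in mOCp, median scaling 0 higher in the second of these, and omission of suffixed probe sets 1 lower in the first. Over all genes 11.9% (quantile), 11.4% (loess) and 12.5% (no suffixed probe sets) were lower in mOCd than in pOC. Those higher in mOCd than in mOCp were 2.01% (quantile), 2.04% (loess) and 1.56% (median scaling). With the probe set chosen before flooring 2 were higher in mOCd than in mOCp, Plxna4 among them, beside 2.2% of all genes. Spike-in scaling gave 3 lower in mOCp than in pOC, beside 23.4% of all genes. It removed log2 differences of −0.17 for pOC against BMM, 0.43 for mOCp against pOC, 0.35 for mOCd against pOC and −0.08 for mOCd against mOCp, and median scaling removed 0.19, 0.03, 0.12 and 0.09 in the same order, so small differences are relative to the scaling. Epha2 has no value without suffixed probe sets. No paired analysis was possible because each stage has 1 array. Dim members near the floor are limited by their signal over background.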

Other observations

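Other guidance families were mostly dim in these cells. Of 22 Slit, Robo, netrin, netrin receptor and repulsive guidance genes, a list added after seeing the data, 14 lay at or under the floor on all 4 arrays, among them Slit1, Slit2, Slit3, Robo1, Robo2 and Robo3. Rgmb, a membrane-anchored co-receptor of BMPs that also binds neogenin, was the 1 gene that reached the 75th percentile. It read 43.7 in BMM, 31.7 in pOC, 104.6 in mOCd and 49.3 in mOCp, 3.30-fold higher in mOCd than in pOC and 2.12-fold higher in mOCd than in mOCp. Its receptor gene Neo1 had its highest value, 27.5, in mOCd too. Ntn1, encoding the secreted cue netrin-1, read 5.6 in BMM, 6.9 in pOC, 33.4 in mOCd and 54.7 in mOCp, above the floor in the mature cultures alone.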
